A study of Mus musculus with 768 samples.

Results

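The 10 genes described here, Mnx1, Isl2, Lhx4, Lmo4, Chat, Slc18a3, Slc5a7, Ache, Ret and Prph, are transcription factors and effector genes of spinal motor neurons and of acetylcholine transmission. They were taken by name, not by level, from a table of 27723 genes, where all 10 matched a row, under the symbols MNX1, ISL2, LHX4, LMO4, CHAT, SLC18A3, SLC5A7, ACHE, RET and PRPH. Each was measured by full-length SMART-Seq2 RNA sequencing of single mouse cells, sorted as viable by a dye. The cells came from embryoid bodies of 1 embryonic stem cell line, Ainv15(iNgn2.Isl1.Lhx3.V5). In this line doxycycline switches on a V5-tagged cassette of the 3 transcription factors Neurog2 (Ngn2), Isl1 and Lhx3. The cells at 0 h carry the same cassette and received no doxycycline; the others had 6, 12, 18, 24, 30, 36 or 48 h of doxycycline at 3 µg/ml. No line without the cassette was analysed here. No label separates cultures of the same hour, and the cells of each hour therefore count as 1 sample. Significance was not tested, and every SD and interval below covers the spread or counting error among cells of 1 sample.

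Spinal motor neurons release acetylcholine onto muscle. Choline acetyltransferase (Chat) makes the transmitter, the vesicular transporter encoded by Slc18a3 loads it into vesicles, the high-affinity choline transporter Slc5a7 takes choline back up, and acetylcholinesterase (Ache) breaks acetylcholine down. Isl1 and Lhx3 are LIM homeodomain proteins that together, held by the cofactor Ldb1, are known to switch on motor neuron genes, among them Mnx1 (Hb9) and the cholinergic genes. Isl2 and Lhx4 are their close paralogues, and Lmo4 is a LIM-only protein that can compete for Ldb1.

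Slc18a3 lies wholly inside Chat on chromosome 14 (mm10, RefSeq annotation GRCm38.p6). Chat spans 32408203 to 32465909 and Slc18a3 32462437 to 32464850, both on the minus strand, with the start of Slc18a3 1059 bases downstream of the start of Chat. The annotated exons of Slc18a3 and Chat share 0 bases in GENCODE M21, but 2413 exon bases of Slc18a3 lie inside Chat on the same strand. Reads in the exons of each can be told apart, whereas reads of unspliced Chat RNA over Slc18a3 cannot. None of the 50-base stretches of the Lhx4 and Isl2 transcripts occurs in a transcript of another gene, including Lhx3 and Isl1, and the same holds for Mnx1, Lmo4, Slc18a3, Slc5a7, Ret and Prph. In Chat 0.207% and in Ache 1.17% of such stretches were shared, and 98 exon bases of Ache overlap the antisense gene model Gm42456, so that Ache values are uncertain to that extent. Lhx3, which is used below to divide the cells, shares 4.65% of its stretches and 188 exon bases with the antisense gene model Gm27196. The other members lie at 29473823 to 29478470 on chromosome 5 (Mnx1), 55538677 to 55547667 on chromosome 9 (Isl2), 155698031 to 155751726 on chromosome 1 (Lhx4), 144188530 to 144205255 on chromosome 3 (Lmo4), 54273590 to 54299038 on chromosome 17 (Slc5a7), 137288247 to 137294466 on chromosome 5 (Ache), 118151748 to 118197744 on chromosome 6 (Ret) and 99053579 to 99058978 on chromosome 15 (Prph).

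The 250 bases before an annotated transcript start are shown for Slc18a3 and Mnx1, the members that the results below turn on, and for Slc5a7, which alone among the matched members held a searched motif in this window. They are, 5′ to 3′ on the minus strand, chr14:32464851-32465100, chr5:29478471-29478720 and chr17:54299035-54299284 (RefSeq, GRCm38.p6).
Slc18a3: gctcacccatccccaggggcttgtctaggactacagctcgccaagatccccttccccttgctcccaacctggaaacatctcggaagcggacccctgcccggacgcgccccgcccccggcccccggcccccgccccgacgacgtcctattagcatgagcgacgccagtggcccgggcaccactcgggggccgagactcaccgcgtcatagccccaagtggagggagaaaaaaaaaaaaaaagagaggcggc
Mnx1: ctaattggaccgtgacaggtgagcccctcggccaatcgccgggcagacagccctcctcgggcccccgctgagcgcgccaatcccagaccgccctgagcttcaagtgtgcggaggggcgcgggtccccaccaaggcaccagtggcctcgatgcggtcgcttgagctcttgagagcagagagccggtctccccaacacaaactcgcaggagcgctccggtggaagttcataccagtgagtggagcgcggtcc
Slc5a7: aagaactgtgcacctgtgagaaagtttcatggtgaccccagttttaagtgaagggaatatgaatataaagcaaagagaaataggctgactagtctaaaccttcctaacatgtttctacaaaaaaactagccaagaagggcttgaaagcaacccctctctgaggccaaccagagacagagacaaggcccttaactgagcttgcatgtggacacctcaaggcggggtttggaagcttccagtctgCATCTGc
Capitals mark a match to CAGATG, an E-box bound by proneural proteins, read on either strand. It starts 7 bases before the transcript start used for the Slc5a7 window. That start lies inside the Slc5a7 span given above, which reaches 54299038, so the match overlaps the end of that span. The other sequence searched was TAATTA, a homeodomain core that reads the same on both strands, with no overlap between the motifs. Of 32851 mouse promoters of this length, 14.4% held CAGATG and 4.84% TAATTA. No entry was matched for Ret. The windows of Slc18a3 and Mnx1 held neither set of letters and had 66.0% and 66.4% G and C bases, against 45.6% in Slc5a7.

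Of the 96 cells at each time point, those with at least 2000 genes above 0 were kept, 14 to 57 per time point and 368 in all. Values are TPM, transcript abundance per length scaled to the same total in each cell, and the number of reads behind each value is unknown. By Sod1 and Gapdh the time points fall into library sets of 0, 12, 36 and 48 h (Sod1 means of 19553 to 65262 TPM) and of 6, 18, 24 and 30 h (518 to 807 TPM). Members are compared only within a set, since set and time cannot be told apart across them. The median number of genes per kept cell was 6481 to 7484 at 6, 18, 24 and 30 h, but 5304, 4269, 2894 and 2141 in the 0, 12, 36 and 48 h cells. A value of 0 at 36 and 48 h is therefore weak evidence of absence. Pluripotency genes marked the embryoid body origin. Their summed mean over 6 genes was 5116, 1992, 374 and 250 TPM in the 0, 12, 36 and 48 h cells. In the other set it was 2494, 1065, 1262 and 808 TPM in the 6, 18, 24 and 30 h cells. The share of cells is given beside each mean, since a mean alone cannot tell fewer cells with a transcript from less transcript per cell.

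In the uninduced 0 h cells 7 of the 10 members were listed at 0 in all 37 cells, which allows a share of up to 8.11% for each. Slc18a3 was found in 1 of them, at 1.56 TPM, Ache in 7 and Lmo4 in 31. The cells of 6, 18, 24 and 30 h are of the other library set, which holds no uninduced cells. Detected means above 0 TPM. There 6 members, Mnx1, Lmo4, Slc18a3, Chat, Ache and Prph, were detected in at least 25% of cells at 1 or more times. Counted from 10 TPM, 3 members were, Mnx1, Lmo4 and Slc18a3. Counted above 0 TPM, 4 were when cells of at least 1000 genes, or all cells, were used. Lhx4 and Slc5a7 were found in fewer cells, and Isl2 and Ret were nearly absent. In the set of the 0 h cells, Lmo4 was detected in 96.2% and Slc18a3 in 30.8% of cells at 12 h. Chat was detected in 15.4%, Ache in 9.62%, Mnx1 in 3.85% and Prph in 1.92% of these 12 h cells.

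**Figure D1:**
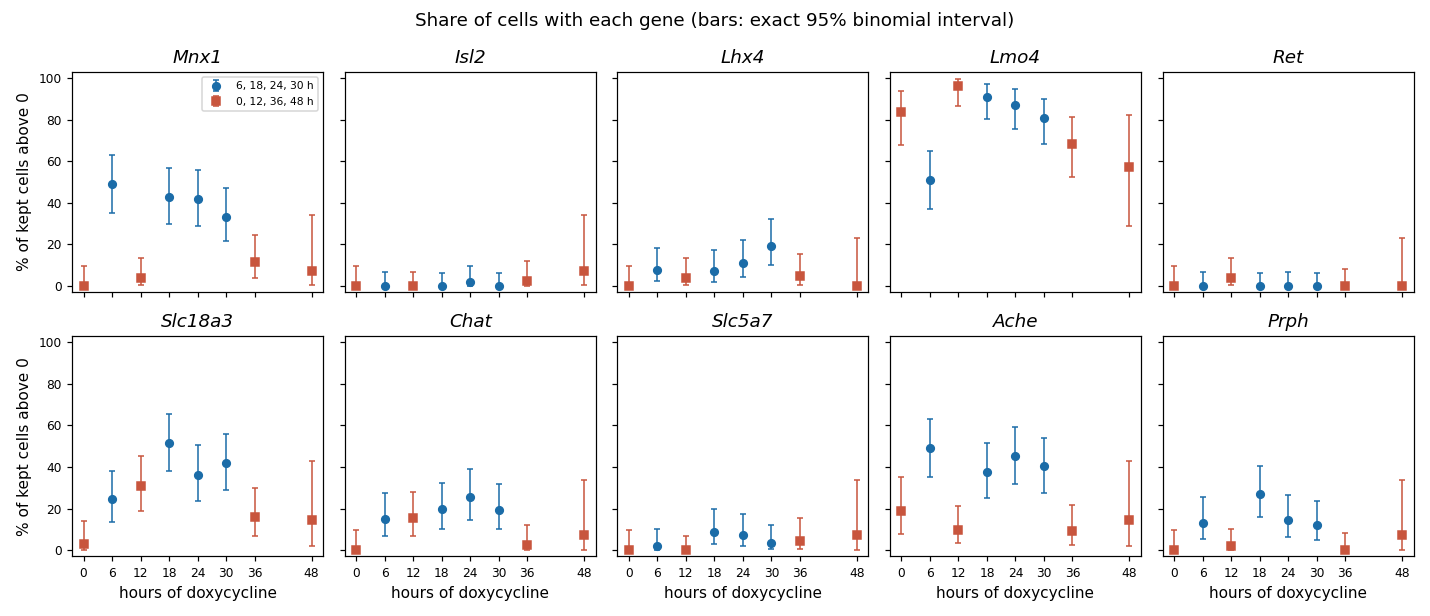
Share of kept cells above 0 TPM (y axis, percent) against hours of doxycycline (x axis) for the 10 members, with exact 95% binomial intervals; circles are 6, 18, 24 and 30 h and squares 0, 12, 36 and 48 h. Among the circles Mnx1 lies at 33.3 to 49.1%, and Lmo4 is above 50% of cells at each of the 8 time points.

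Mnx1, the homeodomain factor that holds motor neuron identity against that of interneurons, was found early. At 6 h it was detected in 26 of 53 cells (49.1%, exact 95% interval 35.1 to 63.2%), with a lowest, median and highest value among those cells of 2.07, 5.88 and 52.0 TPM. At 18 h it was detected in 24 of 56 cells (42.9%), at 24 h in 23 of 55 (41.8%) and at 30 h in 19 of 57 (33.3%, 21.4 to 47.1%). The shares at these 4 times have overlapping intervals. The median of the cells with Mnx1 was 9.31 TPM at 18 h, 11.6 at 24 h and 11.2 at 30 h, and the highest cell had 178, 73.5 and 134 TPM. Over all kept cells the mean was 5.93 ± 11.4 TPM (SD, n = 53 cells) at 6 h and 10.4 ± 27.4 (n = 57) at 30 h, a log2 ratio of 0.72 that is below 2-fold. Its mean was thus higher at 30 h while its share of cells was lower. In the other set Mnx1 was detected in 2 of 52 cells at 12 h, at 28.4 and 82.7 TPM, in 5 of 44 at 36 h (median 89.3 TPM) and in 1 of 14 at 48 h.

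The paralogues of the induced factors were rare. Isl2 was detected in 1 cell each at 24 h (5.46 TPM), 36 h (32.4 TPM) and 48 h (53.8 TPM) and in none at 6, 12, 18 and 30 h, where 0 of 57 cells at 30 h allows up to 5.26%. Lhx4 was detected in 4 of 53 cells at 6 h (7.55%, 2.09 to 18.2%), 4 of 56 at 18 h, 6 of 55 at 24 h and 11 of 57 at 30 h (19.3%, 10.0 to 31.9%). Over the same 4 times Lhx4 averaged 1.08 ± 4.75, 0.70 ± 3.49, 2.97 ± 9.19 and 8.13 ± 22.6 TPM. The log2 ratio at 30 h against 6 h was 2.13, but Lhx4 missed the filter on low values, a mean of at least 10 TPM and detection in at least 25% of cells at the higher time. The intervals at 6 and 30 h overlap. By comparison Isl1 and Lhx3, whose rows also hold any reads of the cassette, were detected in 64.9% and 68.4% of the 30 h cells.

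Lmo4 was the most abundant member at each time point. Within the set of 6, 18, 24 and 30 h it averaged 12.6 ± 19.1, 49.3 ± 57.2, 55.6 ± 55.2 and 54.5 ± 75.2 TPM. It was detected in 27 of 53 cells at 6 h (50.9%, 36.8 to 64.9%) and in 51 of 56 at 18 h (91.1%, 80.4 to 97.0%), intervals that do not overlap. Most of the difference in Lmo4 over this set therefore lay between 6 and 18 h, with log2 ratios against 6 h of 1.89, 2.06 and 2.03 for 18, 24 and 30 h. Within the other set Lmo4 already had 253 ± 273 TPM at 0 h (n = 37) and had 1058 ± 1478 at 12 h (n = 52), 346 ± 493 at 36 h (n = 44) and 371 ± 532 at 48 h (n = 14). The highest single cell had 1124 TPM among those of 0 h and 9720 TPM among those of 12 h. The log2 ratio of Lmo4 was 2.06 between 0 and 12 h and -1.61 between 12 and 36 h. The cells of these times overlap widely in level, as the plot of single-cell levels shows.

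**Figure D2:**
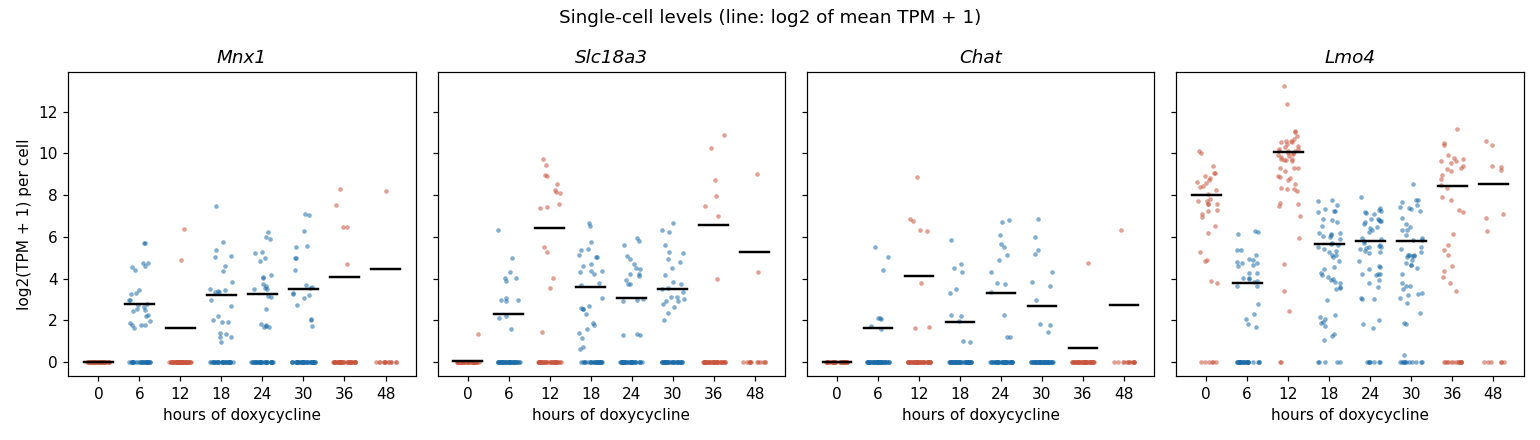
Level of Mnx1, Slc18a3, Chat and Lmo4 in each kept cell (y axis, log2 of TPM + 1) by hours of doxycycline (x axis); each dot is a cell, blue for 6, 18, 24 and 30 h and red for 0, 12, 36 and 48 h, and the black line is the log2 of the mean TPM + 1. Many cells lie at 0, and the cells with Slc18a3 have medians of 7.54 to 17.2 TPM at 6, 18, 24 and 30 h; levels are not comparable between the colours.

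Among the 4 cholinergic members, Slc18a3 was detected in more cells than Chat and Slc5a7 at each of 6, 18, 24 and 30 h. Within the first set it was detected in 13 of 53 cells at 6 h (24.5%, 13.8 to 38.3%), 29 of 56 at 18 h (51.8%, 38.0 to 65.3%), 20 of 55 at 24 h (36.4%) and 24 of 57 at 30 h (42.1%, 29.1 to 55.9%). The cells with Slc18a3 had from 2.05 to 79.0 TPM at 6 h (median 7.54), from 0.55 to 99.9 at 18 h (median 12.9) and from 3.05 to 100.2 at 30 h (median 11.7). Its mean was 3.96 ± 12.1, 11.0 ± 20.9, 7.46 ± 14.3 and 10.2 ± 20.9 TPM at 6, 18, 24 and 30 h. These are log2 ratios against 6 h of 1.27, 0.77 and 1.18 for 18, 24 and 30 h, so the 24 h mean fell short of 2-fold. In the other set Slc18a3 was detected in 1 of 37 cells at 0 h (2.70%, 0.0684 to 14.2%) and in 16 of 52 at 12 h (30.8%, 18.7 to 45.1%), with no overlap of the intervals. Slc18a3 averaged 84.5 ± 188 TPM in the 12 h cells and 93.9 ± 343 TPM in those of 36 h, where 7 of 44 cells had it (15.9%) and the highest had 1904 TPM. Without that cell the 36 h mean was 51.8 TPM.

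Chat, its host gene, was found in fewer cells. It was listed at 0 at 0 h and was detected in 8 of 52 cells at 12 h (15.4%, 6.88 to 28.1%), with a lowest, median and highest value of 2.11, 77.5 and 473 TPM. In the first set it was detected in 8 of 53 cells at 6 h (15.1%), 11 of 56 at 18 h (19.6%), 14 of 55 at 24 h (25.5%, 14.7 to 39.0%) and 11 of 57 at 30 h (19.3%). The 12 h mean of 16.6 ± 69.4 TPM was 7.70 without the highest cell. In the first set the means were 2.10 ± 7.94, 2.74 ± 8.98, 9.07 ± 23.7 and 5.42 ± 18.3 TPM, and the shares overlap in their intervals. Slc5a7 was detected in 1, 5, 4 and 2 cells at 6, 18, 24 and 30 h, 8.93% of cells at most (2.96 to 19.6%), in 0 of 52 cells at 12 h (up to 5.77%), and in 2 of 44 at 36 h, at 89.4 and 128 TPM. Ache was widespread but low. It was detected in 18.9% of 0 h cells and 9.62% of 12 h cells, and in 49.1, 37.5, 45.5 and 40.4% of the 6, 18, 24 and 30 h cells, with means of 1.15 to 1.62 TPM at the latter 4 times. Its log2 ratio at 30 h against 6 h was 0.043, so of the 4 cholinergic genes Ache differed least between these times.

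Prph, peripherin, an intermediate filament of neurons with axons outside the central nervous system, was detected in 7 of 53 cells at 6 h (13.2%, 5.48 to 25.3%), 15 of 56 at 18 h (26.8%, 15.8 to 40.3%), 8 of 55 at 24 h and 7 of 57 at 30 h (12.3%). The mean stayed between 3.35 and 3.90 TPM at these times, while the median of the cells with Prph was 13.7, 8.83, 24.7 and 27.5 TPM. Ret, the receptor tyrosine kinase for glial cell line-derived factors, was listed at 0 at each time point but 12 h, where 2 of 52 cells had 117 and 289 TPM. For Ret, 0 of 57 cells at 30 h allows up to 5.26%.

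In the order of mean levels, which are per length, the 30 h cells had Lmo4 (54.5 TPM), Mnx1 (10.4), Slc18a3 (10.2), Lhx4 (8.13), Chat (5.42), Prph (3.84), Ache (1.41) and Slc5a7 (0.65), with Isl2 and Ret listed at 0. From Mnx1 to Prph each neighbour lay within the SD over cells of the next. At 12 h the order was Lmo4 (1058 TPM), Slc18a3 (84.5), Chat (16.6), Ret (7.82) and Mnx1 (2.14), followed by Ache (0.25), Lhx4 (0.19) and Prph (0.066), with Isl2 and Slc5a7 listed at 0. The Ret mean rested on 2 cells.

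Counted by a fixed rule of size, 3 members passed the filter at 30 h against 6 h, and 2 of them, Lmo4 and Slc18a3, were at least 2-fold higher and none (0) was lower by as much. Over all genes that passed, 13.9% were higher and 6.03% lower by that rule. The median log2 ratio was 0.71 over all 10 members and 0.20 over all genes that passed, and Mnx1 and Slc18a3 passed only through their 30 h level. Slc18a3 is close to the 2-fold line and to the filter: its 30 h mean was 8.59 TPM without the highest cell, rescaling to a median of 0 put it at 0.97, a pseudocount of 10 at 0.53 and odd-numbered cells at 0.63. It turned to -0.77 with cells of at least 1000 genes and to -1.51 with no cell left out, and Lmo4 to -0.042 with no cell left out. At 18 h against 6 h both members that passed, Lmo4 and Slc18a3, were higher (11.8% of all genes that passed were higher and 7.36% lower), and at 24 h against 6 h Lmo4 alone passed and was higher (13.5% and 6.28%). At 18 h against 6 h Slc18a3 again passed only through its later level, so a call of lower was not open to it. These 3 comparisons share the 6 h cells.

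At 12 h against 0 h, 2 members passed, Lmo4 and Slc18a3, and both were at least 2-fold higher, against 17.0% of all genes that passed (13.0% were lower). Slc18a3 passed only through its 12 h level, so a call of lower was not open to it. Its log2 ratio was 6.36, which depends on the pseudocount because the 0 h mean was 0.0422 TPM. Chat, at 4.14, missed the share of cells needed. At 36 h against 12 h Lmo4 alone passed, and it was lower, so that 0 members counted as higher and 1 as lower, against 19.4% and 24.8% of all genes that passed. Against the 0 h cells Lmo4 alone passed again, with log2 ratios of 0.45 for the 36 h cells and 0.55 for the 48 h cells. Neither was at least 2-fold higher or lower, against 22.5% higher and 28.5% lower at 36 h and 22.8% and 43.4% at 48 h. Mnx1 went from a listed 0 at 0 h to 16.0 ± 57.1 TPM at 36 h, in 5 cells (9.01 TPM without the highest), and did not pass.

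The line's factors were then used to divide the cells. At 6, 18, 24 and 30 h, 137 of 221 kept cells had Lhx3 and Isl1 both above 0 and 84 lacked at least 1 of them. The cells with both were deeper, with a median of 7154 genes against 5910. Among the members Slc18a3 differed most: it was detected in 65 of 137 cells with both factors (47.4%, 38.9 to 56.1%) and in 21 of 84 of the rest (25.0%, interval 16.2 to 35.6%). Weighted over the 4 time points the shares were 46.7% and 25.3%, a difference of 21.4 percentage points. Chat was detected in 35 of 137 (25.5%) and 9 of 84 (10.7%), a weighted difference of 14.7 points, Mnx1 in 64 and 28 cells (13.6 points), Lmo4 in 114 and 58 (12.7 points) and Lhx4 in 20 and 5 (8.77 points). Prph differed by 3.37 points. Ache was detected in 56 of 137 and 39 of 84 cells, a difference of -5.12 points that rests on 30 h (-23.1 points, against -1.61, 1.00 and 4.20 at 6, 18 and 24 h). It turned to 5.75 with cells of at least 1000 genes and to 24.9 with no cell left out.

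These differences are to be read against the depth of the cells. Over the 10946 genes detected in at least 20% of either kind of cell, the median difference was 10.3 points, and 11.5% were at least 20 points more often found in the cells with both factors (0.00% less often). Of the 5 members tested this way, Mnx1, Lmo4, Chat, Slc18a3 and Ache, 1 passed 20 points, Slc18a3. The differences of 13.6 points for Mnx1 and 12.7 for Lmo4 were thus close to that median. With the cells of each time point also divided at their median number of genes, Slc18a3 differed by 18.6 points, Chat by 12.8, Mnx1 by 12.6 and Lmo4 by 10.1, against a median of 5.89 points over all genes, and 3.60% of genes passed 20 points. Among the deeper cells, where both kinds had similar depth (medians of 7636 and 7699 genes), Slc18a3 was detected in 42 of 83 and 10 of 29 cells and Mnx1 in 43 of 83 and 7 of 29, weighted differences of 14.0 and 27.0 points. Among the shallower cells Slc18a3 was detected in 23 of 54 and 11 of 55 cells, while Mnx1 was detected in 21 of 54 and 21 of 55. For the deeper and the shallower cells no share over all genes was kept, so these differences have no background beside them. With cells of at least 4000 genes Slc18a3 differed by 15.1 points, and counted at 10 TPM by 14.8. The call of Slc18a3 past 20 points is thus lost with strata of depth, with deeper cells and at 10 TPM, while its direction is the same.

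**Figure D3:**
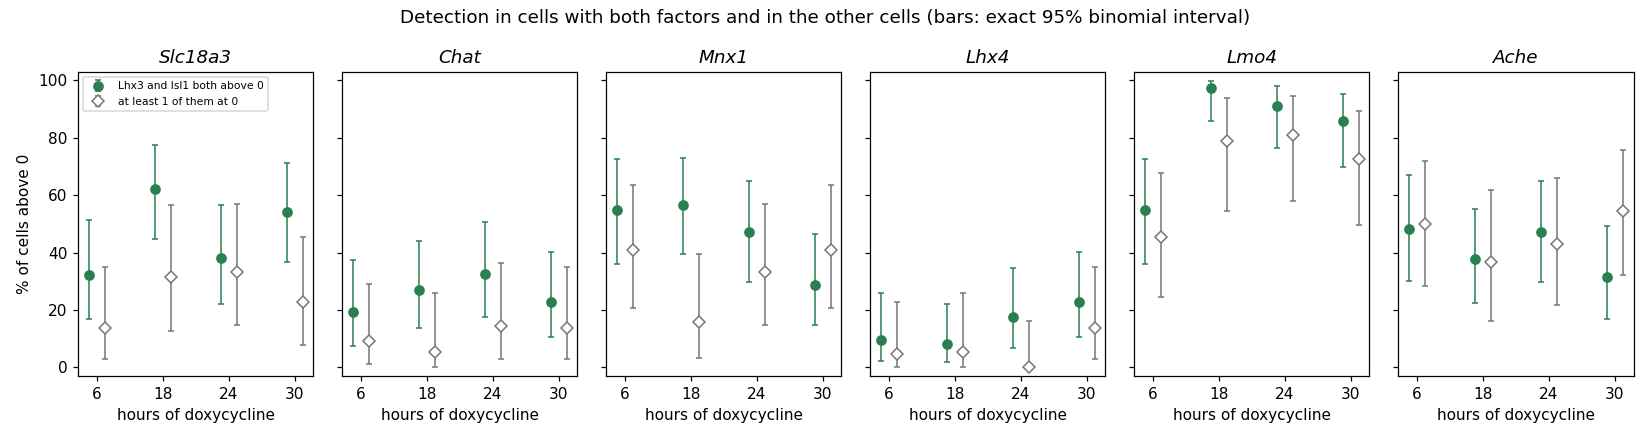
Share of cells above 0 TPM (y axis, percent) for 6 members at 6, 18, 24 and 30 h (x axis) in cells with Lhx3 and Isl1 both above 0 (filled circles) and in cells lacking at least 1 of them (open diamonds), with exact 95% binomial intervals. Slc18a3, Chat, Lhx4 and Lmo4 are higher in the cells with both factors at all 4 times, whereas Mnx1 is lower in them at 30 h and Ache at 6 and 30 h.

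By time point, Slc18a3 was detected in 32.3% and 13.6% of the cells with and without both factors at 6 h, 62.2% and 31.6% at 18 h, 38.2% and 33.3% at 24 h, and 54.3% and 22.7% at 30 h. The difference was thus small at 24 h and largest at 30 h, at 31.6 points. Chat kept its direction at all 4 times, from 9.22 points at 30 h to 21.8 at 18 h. Mnx1 did not: it was detected in 54.8% and 40.9% at 6 h, 56.8% and 15.8% at 18 h, 47.1% and 33.3% at 24 h, but 28.6% and 40.9% at 30 h. The intervals for Mnx1 overlap at each time but touch least at 18 h (39.5 to 72.9% against 3.38 to 39.6%). At 24 h all 6 cells with Lhx4 had both factors. In the other set, at 12 and 36 h together, Slc18a3 was detected in 11 of 30 cells with both factors and 12 of 66 without (weighted difference 18.0 points), where 7.09% of all genes passed 20 points. Lmo4 differed there by 13.5 points, Chat by 5.29 and Mnx1 by -0.64. Of the members, Lmo4 and Slc18a3 reached the 20% of cells needed there, and neither passed 20 points. Divided by Lhx3 alone Slc18a3 did, at 26.3 points (5.84% of all genes), and by Isl1 alone it did not, at 7.17 points (3.57%). Depth differed between these divisions. The median was 4133 genes with Lhx3 and 3139 without, 3657 with Isl1 and 3300 without, and 4070 with both factors against 3208. The part of depth was not tested there.

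Cells with 1 factor gave a further division, with few cells. Of the 46 cells with neither factor 8 had Slc18a3 (17.4%, 7.82 to 31.4%), of the 16 with Isl1 alone 3 (18.8%, 4.05 to 45.6%), of the 22 with Lhx3 alone 10 (45.5%, 24.4 to 67.8%) and of the 137 with both 65 (47.4%). The share with Lhx3 alone was thus near that with both, although the intervals of the cells with Lhx3 alone and with Isl1 alone overlap all others. Those of the cells with neither and with both do not overlap. Dividing by Lhx3 alone gave Slc18a3 a difference of 28.9 points, where 16.0% of genes passed 20 points, and dividing by Isl1 alone 17.7 points, where 10.6% did. Mnx1 was detected in 30.4, 37.5, 36.4 and 46.7% of cells with neither, Isl1 alone, Lhx3 alone and both, and Chat in 6.52, 12.5, 18.2 and 25.5%. The median number of genes was 5246, 6459, 6517 and 7154 in these kinds of cells, so depth moves with this division, and its part was not tested. Neurog2, the third gene of the cassette, was detected in 32.2% of cells with both other factors and 4.86% of the rest, weighted over time. In cells with Neurog2 the weighted difference was 19.5 points for Mnx1, 10.2 for Chat and 5.27 for Slc18a3, where 2.22% of genes passed 20 points and the median depth was 7323 against 6900 genes. At 12 and 36 h Slc18a3 differed by 23.4 points between 16 cells with Neurog2 and 80 without, where 13.8% of genes passed. Mnx1 was detected in 2 and 5 of these cells, below the 20% needed, so no order of members is read there. The 16 cells were 9 at 12 h and 7 at 36 h. Their median depth was 4095 genes, against 3242 in the rest.

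**Figure D4:**
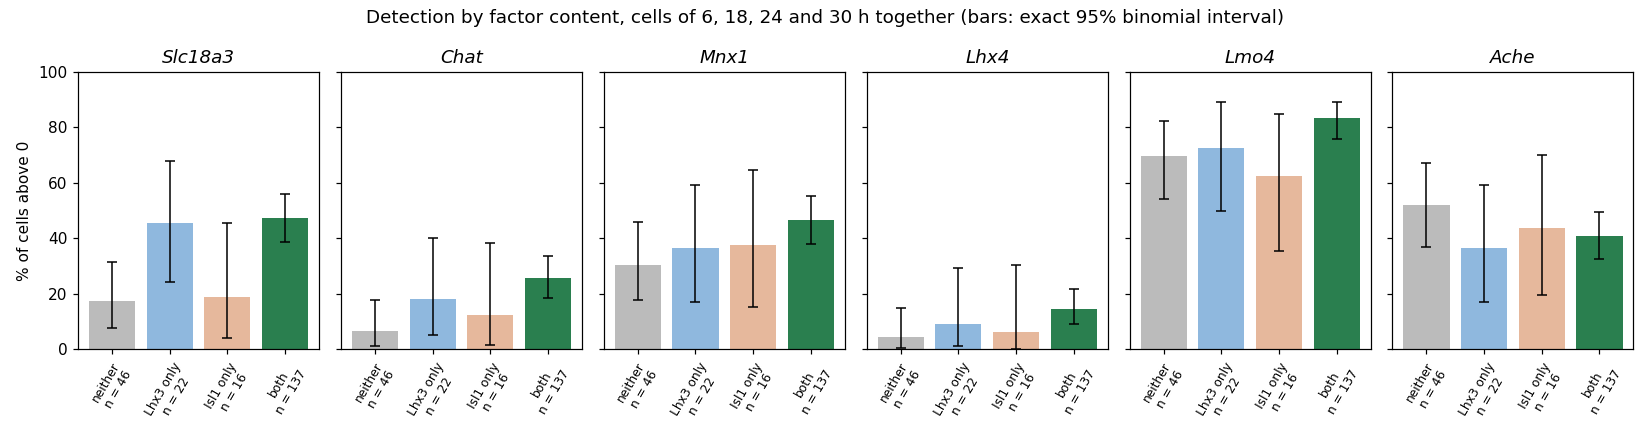
Share of cells above 0 TPM (y axis, percent) for 6 members in cells of 6, 18, 24 and 30 h with neither Lhx3 nor Isl1 (46), Lhx3 alone (22), Isl1 alone (16) or both (137) above 0 (x axis), with exact 95% binomial intervals. Slc18a3 is at 17.4 and 18.8% with neither and with Isl1 alone and at 45.5 and 47.4% with Lhx3 alone and with both.

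Single cells rarely held many members at once. Counting 8 members without Lmo4 and Ache, which were already present at 0 h, 17 of 53 cells had none at 6 h (32.1%), 13 of 56 at 18 h (23.2%), 14 of 55 at 24 h (25.5%) and 13 of 57 at 30 h (22.8%). At least 2 were detected in 28.3, 50.0, 47.3 and 42.1% of these cells, in the same order. The highest count was 5 members, in 1 cell at 18 h. Depth moved with these counts at 18 h, where the cells with none had a median of 3624 genes and those with 1 had 7166, but less at 30 h (6384 and 6428 genes); its part was not tested. At 6, 18, 24 and 30 h together, at least 3 were detected in 30 of 137 cells with both factors (21.9%) and in 2 of 84 of the rest (2.38%). The cells with both factors were deeper, with a median of 7154 genes against 5910. No such count was made for other genes, and the part of depth in this difference was not tested. In the shallower set at least 1 was detected in 1 of 37 cells at 0 h (2.70%), 25 of 52 at 12 h (48.1%) and 15 of 44 at 36 h (34.1%).

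**Figure D5:**
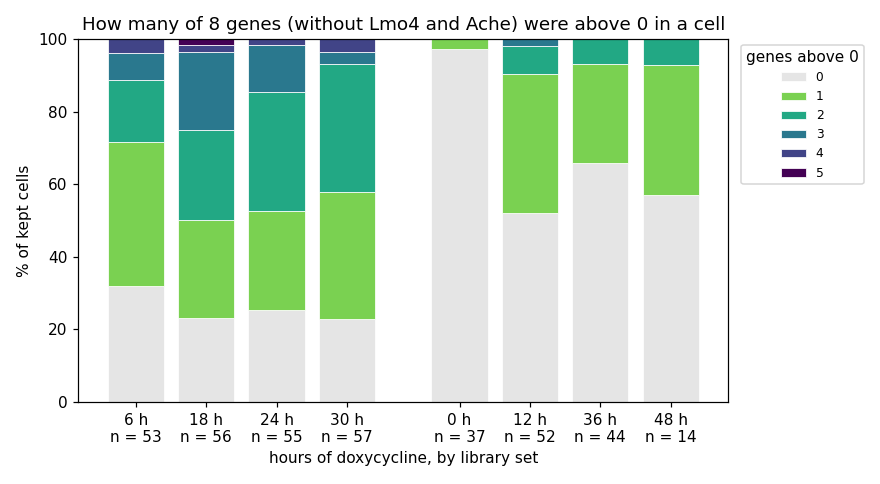
Percent of kept cells (y axis) in which 0 to 5 of 8 members were above 0 TPM, the 8 being all but Lmo4 and Ache, by time point and library set (x axis). Cells with none are 22.8 to 32.1% at 6, 18, 24 and 30 h, and in the other set 97.3% at 0 h and 51.9% at 12 h.

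Slc18a3 and its host gene Chat were found together in 24 cells at 6, 18, 24 and 30 h. Chat was detected in 24 of 86 cells with Slc18a3 (27.9%) and 20 of 135 without (14.8%), a weighted difference of 13.1 points. Of the cells with Chat, 20 of 44 had no Slc18a3. The part of unspliced Chat RNA in the Slc18a3 values was not tested. Mnx1 was detected in 44 of 86 cells with Slc18a3 (51.2%) and 48 of 135 without (35.6%), 17.5 points apart, but in 19 of 44 cells with Chat and 73 of 177 without (43.2 and 41.2%). Ache was detected in 34 of 92 cells with Mnx1 (37.0%) and 61 of 129 without (47.3%). At 12 and 36 h only 3 of 9 cells with Chat had Slc18a3, against 20 of 87 without Chat.

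The early cells with motor neuron genes still held pluripotency transcripts. At 6 h Pou5f1 (Oct4) was detected in 26 of 26 cells with Mnx1, 13 of 13 with Slc18a3 and 8 of 8 with Chat, and in 25 of 27 cells without Mnx1. At 30 h it was detected in 9 of 19 cells with Mnx1 and 20 of 38 without, and in 11 of 24 with Slc18a3 and 18 of 33 without. Stmn2, a neuronal microtubule regulator, was detected in 11 of 26 cells with Mnx1 and 13 of 27 without at 6 h, and in 15 of 19 and 34 of 38 at 30 h. At 6 h nearly every cell, with or without Mnx1, thus still had Pou5f1.

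In the 6 and 30 h cells some other genes of acetylcholine signalling were at higher levels than Chat and Slc18a3. The counts below stand beside the shares over all genes that passed. These were 13.9% higher and 6.03% lower at 30 h against 6 h, and 17.0% and 13.0% at 12 h against 0 h. With so few genes passing per list, the counts are given as description only. Of 13 further cholinergic genes, 2 passed at 30 h against 6 h, both at least 2-fold higher: the nicotinic receptor subunits Chrna3, with 33.0 and 203 TPM and 49.1 and 96.5% of cells at 6 and 30 h, and Chrnb4, with 12.0 and 43.3 TPM. At 12 h against 0 h 4 passed and 3 were higher, among them Slc10a4, a vesicle protein of cholinergic neurons, listed at 0 at 0 h and at 24.3 TPM in 25.0% of cells at 12 h. Chrnb4 had 2.46 and 31.4 TPM at 0 and 12 h but was detected in 62.2 and 42.3% of these cells. At 12 h Slc10a4 and Chrnb4 were below the Slc18a3 mean of 84.5 TPM. Of 13 genes of Ret signalling 5 passed at 30 h against 6 h and 2 were higher, the co-receptors Gfra2 (1.98 and 11.7 TPM) and Gfra1 (3.16 and 10.3 TPM), beside a Ret row listed at 0. Of 9 LIM cofactors and LMO genes 5 passed and 1 was higher, Ldb1, with 11.5 and 24.9 TPM. Of 8 other LIM homeodomain genes 0 passed. Of 16 genes of motor neuron subtypes and later stages 1 passed, and it was lower: Calca, a peptide gene, with 145 and 19.8 TPM.

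Markers of other cells were checked beside these. Over all genes that passed, 13.9% were higher and 6.03% lower at 30 h against 6 h, and 17.0% and 13.0% at 12 h against 0 h. At 30 h against 6 h 0 of 9 interneuron and sensory markers, 0 of 10 genes of other transmitters, 0 of 4 endoderm and 0 of 3 neural crest markers passed, with summed means at 30 h of 2.17, 5.01, 0.134 and 0.988 TPM. Of 10 neuronal genes 8 passed and 6 were higher, among them Stmn2 (9.57 and 124 TPM), the neurofilament gene Nefl (8.02 and 72.2) and Elavl3, an RNA-binding protein of neurons (1.16 and 12.8). Of 6 pluripotency genes 5 passed and 4 were lower, with Pou5f1 at 307 and 53.4 TPM. Of 5 mesoderm markers 1 passed, T (Brachyury), with 0.314 and 49.3 TPM at 6 and 30 h, and the summed mean of these markers was 1.27 and 50.8 TPM. Mixl1, Eomes and Kdr made up the rest, and Mesp1 was listed at 0. At 12 h against 0 h the sensory factor Pou4f1 passed and was higher, with 23.8 and 3.09 TPM, and the summed mean of the interneuron and sensory markers was 35.4 and 4.38 TPM, beside the higher Slc18a3. The mesoderm markers summed to 47.8 and 12.8 TPM at those times. The part of these markers in the members' values was not tested.

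Genes whose levels followed those of members from cell to cell were found by Pearson's r of log2(TPM + 1) within a time point, averaged over 6, 18, 24 and 30 h, among 7917 named genes. These correlations are across cells of the same libraries that share depth, and they are weak. For Mnx1 the highest were Cntn2, an axonal adhesion protein (0.34), Smpd1 (0.29), Rtn1 (0.29) and Kdm6b, a histone demethylase (0.29), where 95% of genes lay below 0.15, although Kdm6b had 0.013 at 24 h. For Slc18a3 they were Mef2d (0.35), Tarbp2 (0.34), Chrnb4 (0.34) and Uba3 (0.34), against 0.21. After removal of the trend with genes per cell Mef2d and Chrnb4 were among the 4 highest, at 0.30 and 0.28, but Tarbp2 and Uba3 were not. For Lmo4 they were Arhgap28 (0.41), Gap43, a growth cone protein (0.40), Cadm1, listed under its synonym SgIGSF (0.39), and Tcf4 (0.39), against 0.20, with Gap43 outside the 4 highest after that removal. Chrnb4 had r from 0.28 to 0.41 with Slc18a3 at the 4 times.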

How the data were processed

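The data were full-length RNA profiles of 768 single cells, 96 at each of 8 time points, with 50 bp reads and no molecular identifiers. The authors deposited 1 table of TPM values for 27723 genes, whose columns each sum to 1000000 within rounding. TPM keeps no depth. The tools bcl2fastq and Picard and the build mm10 are named, without versions, in the submitters' processing notes. Aligner and annotation: not given in the sources used here. Per the labels there were 2 library batches; no label assigns cells to them.

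A cell was kept if 2000 or more genes were above 0 (368 cells, with 400 left out). For each gene the mean TPM, its SD over cells and the share of cells above 0 with an exact (Clopper-Pearson) 95% binomial interval were computed. For a share of 0 the upper limit is 3 divided by the cells examined. Changes between times are given as log2 ratios of the mean plus a pseudocount of 1 TPM, which makes those of low genes too small, for genes with a mean of at least 10 TPM and detection in at least 25% of cells at the higher time, and were called at 2-fold. Shares in cells with and without factors were weighted over time points by n1*n0/(n1 + n0) and called at 20 percentage points. Cells are not replicates, so no p-value was made. The fold and share calculations were tested on simulated data.

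Members and lists were chosen with earlier results of these data known. Named genes are the 10 members, the 3 factors, the 4 genes most like each of Mnx1, Slc18a3 and Lmo4, and from each list up to 3 passing genes, taken by the size of their ratio between 30 and 6 h. Slc10a4, Pou4f1, Mixl1, Eomes, Kdr, Mesp1 and the promoter motifs were chosen after values were seen. So were the genes set beside Mnx1, Slc18a3, Chat and Lmo4 within cells (Pou5f1, Stmn2, Tubb3, Elavl3). Of 109 list genes 109 matched the table by symbol or RefSeq synonym. No columns of other samples were present (0). Sequences and positions are RefSeq's (GRCm38.p6) and exons GENCODE M21's. Alternatives were other cell filters, pseudocounts, filters, scaling, detection limits and definitions of the cells. Software was matplotlib 3.10.9, scipy 1.17.1, pandas 2.3.3 and numpy 2.4.6 under Python 3.11.15.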

Additional observations from a re-analysis of the deposited data

Results flagged for a closer look

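The cells left out for having under 2000 genes entered only the alternatives with a lower or no limit on genes. In those at 48 h, Lmo4 was above 0 in 23 of 82 cells (28.0%, exact 95% interval 18.7 to 39.1%), against 5 of 59 left-out cells at 0 h (8.47%, 2.81 to 18.7%), so that the intervals meet without overlapping. Their mean level of Lmo4 was 601 TPM, against 80.8 TPM in the left-out 0 h cells. The same check over the 10 members and the 7 induced time points, against 0 h, picked out no other case. Some of these time points are of the library set that holds no 0 h cells. For them set and time cannot be told apart, so the check cannot decide and nothing is read from it. The result counts only for the induced time points in the same set as 0 h. In the left-out cells at 0 h Mnx1 was above 0 in 2 of 59, a mean of 43.5 TPM, while it was at 0 in the kept cells.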

How the results depend on the processing

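The count of members at least 2-fold higher at 30 h than at 6 h, 2, was 1 with cells of at least 1000 genes, a pseudocount of 10, rescaling so that the median gene has a log2 ratio of 0, leaving out each gene's highest cell, or odd-numbered cells, 0 with every deposited cell and 4 with no filter on low values. The log2 ratio turned to -0.77 (1000 genes) and -1.51 (every cell) for Slc18a3 and to -0.042 (every cell) for Lmo4, and the Ache difference of -5.12 points by both factors to 5.75 (1000 genes) and 24.9 (every cell); the cause was not tested. At 12 h against 0 h the count of 2 was 1 with every cell and 5 with no filter, and at 36 h against 12 h the count of 0 was 3 with no filter, which lets in genes found in few cells. The 6 members found in at least 25% of cells became 3 at 10 TPM and 4 with cells of at least 1000 genes or every cell. The 1 member at least 20 points more often found with both Lhx3 and Isl1 became 3 with cells of at least 1000 genes and 5 with every cell. It became 0 with cells of at least 4000 genes (Slc18a3 at 15.1 points), at 10 TPM (14.8), with Isl1 alone (17.7), with strata of depth (18.6) and with Neurog2 alone (5.27), a division chosen after seeing the data. The comparison of 36 h with 12 h could not be run at 4000 genes, as 0 cells remained at 36 h. Of the values for single genes, 137 stayed on their side of the call or inside their interval or rank, 36 left their interval or rank, 8 fell below a call, 5 passed one and 5 changed sign. No paired analysis was possible because each time point is 1 sample and a cell's number does not tie it to a cell of another time. The number of reads behind a value is unknown, and at 36 and 48 h depth limits what a 0 can show.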

Other observations

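Lmo4 went with Stmn2 at 24 h: Stmn2 was above 0 in 45 of 48 cells with Lmo4 and 3 of 7 without, with means of 150 and 13.5 TPM at similar depth (medians of 6714 and 6650 genes). At 30 h Stmn2 was above 0 in 41 of 46 and 8 of 11 cells. At 6 h its share was lower with Lmo4, 11 of 27 cells against 13 of 26. At 18 h its mean was lower with Lmo4, 41.0 against 93.1 TPM, with only 5 cells lacking Lmo4. Prph was above 0 in 6 of 12 cells with Slc5a7 and 31 of 209 without, at 6, 18, 24 and 30 h together. Both pairs were picked out after their values were seen.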
